A study of Mus musculus with 6 samples.

Results

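Kinetochore and spindle checkpoint genes were followed in myoblasts without Hdac11 and in wild-type myoblasts, at day 1 of differentiation. The set was given as 44 gene symbols, and all 44 were found among the 21778 genes of the deposited count table. They were grouped by role into 17 genes of the centromere, 10 of the KMN network, 3 of the SKA complex and 14 of the checkpoint and the outer corona. The knockout (KO) group held 3 libraries from Hdac11-/- mice, made by crossing animals with a floxed exon 3 of Hdac11 to a line with Cre under the SOX2 promoter, so that the gene was lost throughout the animal. The wild-type (WT) group held 3 libraries from WT littermates. Both groups were on the C57BL/6 strain. Cells positive for alpha7-integrin and CD34 had been sorted from hindlimb muscle and cultured, and cultures of both genotypes spent 24 h in medium with 2% horse serum before poly(A) RNA was sequenced. HDAC11 is the class IV histone deacetylase, and the series asks what its loss does to gene expression in these cells.

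The kinetochore is the protein assembly that joins a chromosome to the spindle, and it is built on nucleosomes that carry the histone H3 variant CENP-A. An inner layer, the constitutive centromere-associated network, sits on this chromatin through the cell cycle, and the outer KMN network and the SKA complex bind microtubules in mitosis. The spindle assembly checkpoint delays anaphase while any kinetochore lacks microtubules, by holding back CDC20, the activator of the anaphase-promoting complex. Many of these transcripts peak in G2 and mitosis and decline when cells leave the cycle, as myoblasts do when they differentiate.

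Library totals ran from 16742457 to 22835394 counts, and the lowest count of any of the 44 genes in any library was 24. The Hdac11 transcript, in CPM (counts per 1000000 of the TMM-scaled library), measured 33.5 and 30.2 in KO replicates 1 and 3, 76.4 in the library labelled KO replicate 2, and 63.0, 79.5 and 73.8 in WT libraries. The library labelled KO replicate 2 thus lay within the WT range, which goes against its label, although a count over the whole gene does not test for the missing exon. This library enters every result that does not state its removal, and values of a group are listed in the order of replicates 1, 2 and 3. By Xist and Y-linked transcripts, KO replicate 3 and WT replicate 1 were male and the remaining libraries female. The 8 myoblast markers summed to 6108 to 8574 CPM in KO and 9691 to 10669.7 CPM in WT, with Pax7 higher and Des and Itga7 lower in KO at an unadjusted p under 0.05. Summed markers of other cell types were low beside those of myoblasts. The sums were 1.57 to 2.24 CPM in KO and 1.48 to 3.27 CPM in WT for 6 fibroblast genes, 1.52 to 4.01 CPM in KO and 1.92 to 3.12 CPM in WT for 5 endothelial genes, and 5.31 to 6.98 CPM in KO and 5.30 to 16.0 CPM in WT for 4 leukocyte genes. They were 14.9 to 29.2 CPM in KO and 26.5 to 36.0 CPM in WT for 4 smooth muscle and pericyte genes and 3.45 to 5.23 CPM in KO and 6.11 to 10.4 CPM in WT for 3 Schwann cell genes. In the leukocyte list Csf1r and Lyz2 reached at most 0.0895 and 0.116 CPM in any library. Cd68 reached 4.61 CPM in the library labelled KO replicate 2, and Itgam reached 14.3 CPM in WT replicate 2. Rgs5, a smooth muscle and pericyte gene, had 20.0, 18.2 and 12.0 CPM in KO and 31.6, 2.27 and 24.9 CPM in WT. Pdgfrb of the same list had 2.69, 6.22 and 0.678 CPM in KO and 2.28, 16.0 and 0.582 CPM in WT. Adipocyte markers were not analysed here.

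Each of the 44 genes had a higher mean in KO than in WT cells. Their log2 fold changes ran from 0.07 for Mad1l1 to 1.83 for Ska3 with a median of 1.27. Over all 14835 tested genes the median was -0.01, and 49.2% were above 0. All 44 passed the filter on low counts. A log2 fold change of at least 1 was reached by 32 of them, against 5.59% of all tested genes. In 40 genes every KO library lay above every WT library, against 13.2% of all tested genes, and in 0 every KO library lay below, against 10.2%.

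In edgeR's quasi-likelihood test 38 genes were nominally higher, meaning an unadjusted p under 0.05, and 0 nominally lower. The background over all tested genes was 9.88% higher and 7.83% lower. After Benjamini-Hochberg adjustment over all tested genes edgeR called 0 of the 44, with a background of 0%, and the smallest adjusted p among the 44 was 0.138. DESeq2 called 34 higher and 0 lower, against 4.13% and 2.21% of all tested genes. Without KO replicate 3 DESeq2 called 16 of the 44 higher, against 1.15% of the genes tested there. The authors' deposited table held 34 as higher, against 4.08%. In limma-voom 37 were nominally higher, against 10%, and 0 passed after adjustment, against 0%.

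Without the library labelled KO replicate 2 all 44 fold changes remained positive, with a median log2 value of 1.39. Then 39 genes were nominally higher in edgeR, against 9.52% of all tested genes, and 0 passed after adjustment, against 0%. KO and WT values were apart in 43 genes, with Zw10 as the exception, against 19.5% of all tested genes on these 5 libraries. Since RNA came from whole cultures, a larger share of dividing cells and more of these transcripts per cell cannot be told apart in any of these values.

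**Figure D1:**
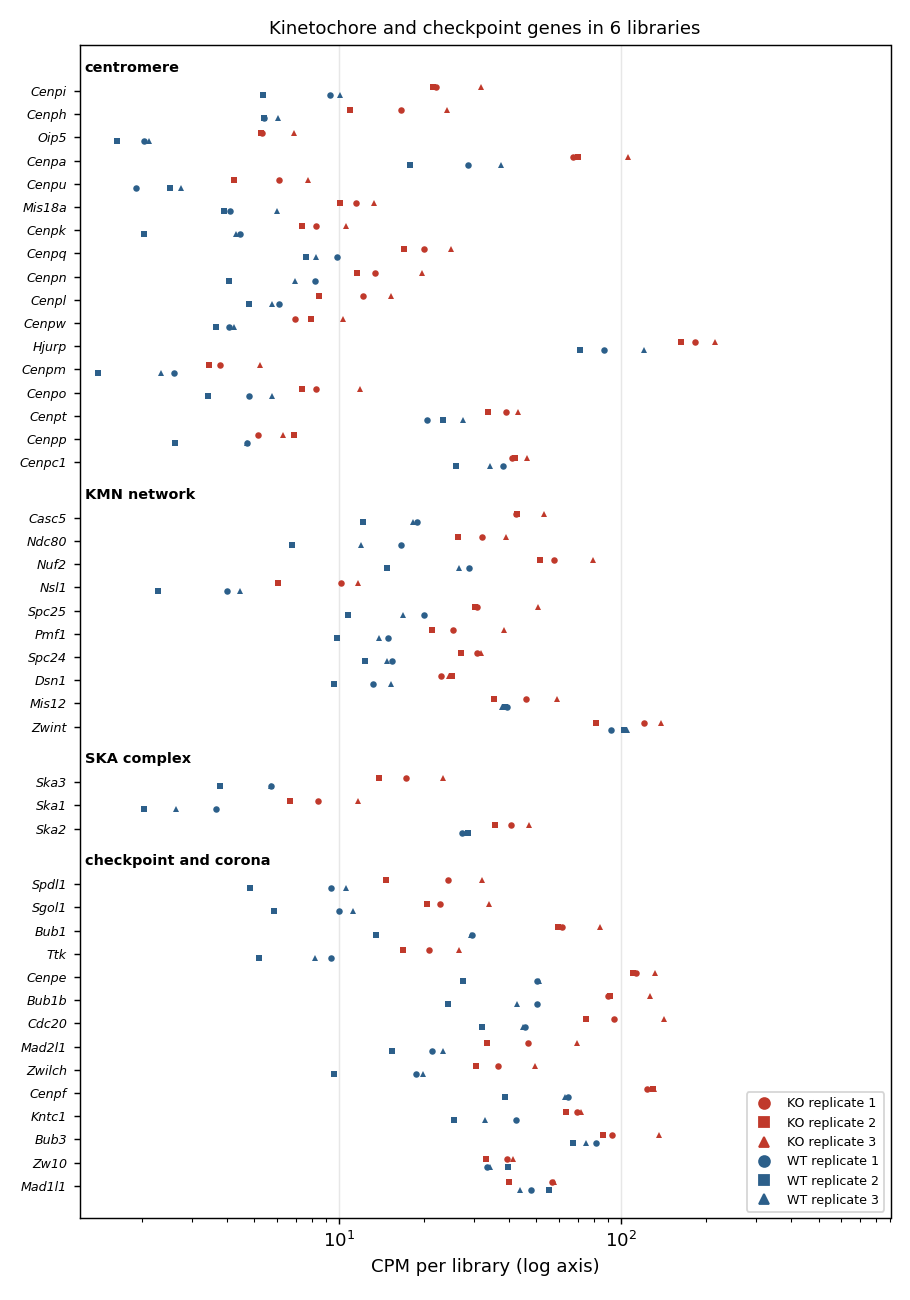
CPM of the 44 genes in each of the 6 libraries, on a log axis, with KO libraries in red above WT libraries in blue and 1 symbol per replicate; genes are grouped by role and ordered by fold change. KO points lie to the right of WT points in 40 genes, and the 4 genes whose groups overlap are Mis12, Zwint, Zw10 and Mad1l1.

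The libraries kept a similar order from gene to gene. KO replicate 3 was the highest of all 6 libraries in 42 genes, and the library labelled KO replicate 2 in the other 2, Cenpp and Dsn1. WT replicate 2 was the lowest in 37 genes. Among the KO libraries the one labelled replicate 2 was the lowest in 36 genes. Summed over the 44 genes, KO replicates 1 and 3 had 1844 and 2337 CPM, the library labelled KO replicate 2 had 1638 CPM, and the WT libraries had 1055, 805 and 1079.6 CPM. All KO sums stood above all WT sums. The highest KO sum was that of its male library, and the highest WT sum that of replicate 3, a female library. In WT the male library, replicate 1, was the highest in 22 genes, replicate 3 in 19 and replicate 2 in 3. With sex as a covariate 39 genes were nominally higher in edgeR, against 10.7% of all tested genes, and with 1 male library a group the part of sex was not tested further.

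Promoters are shown for the 3 genes with the smallest edgeR p and the 3 with the largest p among those with a sequence, so that both ends of the ranking can be read side by side. The sequences are from RefSeq on GRCm38.p6, from 250 bases before to 50 bases after the annotated start, 5′ to 3′ on the strand of the gene. Capitals mark words found on either strand. The word TTTGAA is the core of the cell cycle genes homology region (CHR), which MuvB complexes bind. The word CCAAT is the NF-Y box. For E2F, the word TTCCCGC was searched, as was the word TTGGCGC, besides the form TTCGCGC and the form TTGCCGC.
Casc5 (Knl1 in RefSeq), chr2:119046869-119047168, plus strand: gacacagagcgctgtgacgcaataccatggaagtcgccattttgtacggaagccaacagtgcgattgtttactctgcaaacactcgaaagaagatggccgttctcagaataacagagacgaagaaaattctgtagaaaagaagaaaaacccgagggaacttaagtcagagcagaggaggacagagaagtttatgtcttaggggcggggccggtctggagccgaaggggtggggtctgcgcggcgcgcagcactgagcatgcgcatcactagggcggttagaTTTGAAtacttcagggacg
Ska3, chr14:57826114-57826413, minus strand: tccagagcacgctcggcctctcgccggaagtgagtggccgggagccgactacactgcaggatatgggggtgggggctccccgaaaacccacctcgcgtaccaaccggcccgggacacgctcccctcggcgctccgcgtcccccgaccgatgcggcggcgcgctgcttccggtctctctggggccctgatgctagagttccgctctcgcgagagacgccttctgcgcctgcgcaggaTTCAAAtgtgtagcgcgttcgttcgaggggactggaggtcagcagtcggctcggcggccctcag
Cenpe, chr3:135212313-135212612, plus strand: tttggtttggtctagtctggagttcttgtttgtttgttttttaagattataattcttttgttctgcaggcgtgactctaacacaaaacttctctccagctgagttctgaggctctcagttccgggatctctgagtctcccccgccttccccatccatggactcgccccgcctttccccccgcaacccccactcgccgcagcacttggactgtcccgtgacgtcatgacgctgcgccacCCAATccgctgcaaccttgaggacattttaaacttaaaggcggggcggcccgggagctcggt
Zwint, chr10:72654596-72654895, plus strand: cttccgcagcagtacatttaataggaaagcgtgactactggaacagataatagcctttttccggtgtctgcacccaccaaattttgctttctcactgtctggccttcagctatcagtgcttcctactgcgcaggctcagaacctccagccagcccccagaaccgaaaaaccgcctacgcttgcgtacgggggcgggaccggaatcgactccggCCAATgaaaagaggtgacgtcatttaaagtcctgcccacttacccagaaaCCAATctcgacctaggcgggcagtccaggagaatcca
Zw10, chr9:49055331-49055630, plus strand: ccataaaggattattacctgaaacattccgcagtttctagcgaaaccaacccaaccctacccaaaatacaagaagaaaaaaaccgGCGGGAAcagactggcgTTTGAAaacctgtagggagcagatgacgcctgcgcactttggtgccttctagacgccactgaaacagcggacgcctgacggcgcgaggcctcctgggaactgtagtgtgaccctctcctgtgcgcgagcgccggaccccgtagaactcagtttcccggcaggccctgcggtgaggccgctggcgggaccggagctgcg
Mad1l1, chr5:140321503-140321802, minus strand: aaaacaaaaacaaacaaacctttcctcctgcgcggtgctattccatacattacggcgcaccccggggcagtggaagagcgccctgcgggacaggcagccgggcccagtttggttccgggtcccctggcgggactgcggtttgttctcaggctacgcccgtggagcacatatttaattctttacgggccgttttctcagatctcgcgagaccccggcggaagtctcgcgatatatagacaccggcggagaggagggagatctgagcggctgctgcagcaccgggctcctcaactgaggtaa

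Positions count from the annotated start as position 1, with no position 0. The CHR word of Casc5 began at position 32, and that of Ska3, on the opposite strand, at position -14. Cenpe had an NF-Y box at position -12. At the other end of the ranking, Zwint had NF-Y boxes at positions -37 and 14, Zw10 had a CHR word at position -148 and an E2F word at position -165, and the Mad1l1 window shown, 1 of 2, held none of these words. Over the set, with 44 windows for 40 genes, the CHR word was in 20 windows or 45.5%, against 17.9% of 32851 promoters. The NF-Y box was in 31 windows or 70.5%, against 37.4%, and an E2F word in 12 or 27.3%, against 9.57%. Both a CHR word and an NF-Y box were in 16 windows, against 6.95% of all promoters. Of the 37 windows of nominally higher genes, 51.4% held the CHR word, 75.7% the NF-Y box and 27.0% an E2F word, against 1, 3 and 2 of the 7 windows of the remaining genes. The CHR word and the NF-Y box shared 1 base in Kntc1 and in Cenpw, and the NF-Y box and an E2F word shared 4 bases in Ska2. Windows of the same gene were counted separately even where they overlap. The CHR word of Bub3, at positions -43 and -167 of its windows, is thus the same site counted again. These matches describe letters in a fixed window and were not tested. No window of Spc24, Nsl1, Zwilch or Ska1 was among the 44. Windows on chromosome 18, where Ska1 lies, were left out of the set but kept among the 32851 promoters.

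At the centromere, every KO library was above every WT library in all 17 genes, against 13.2% of all tested genes. The log2 fold changes had a median of 1.21. In edgeR 15 genes were nominally higher, against 9.88%, and 0 passed after adjustment. DESeq2 called 13, against 4.13%. Cenpa encodes the centromeric histone itself. It had 67.2, 70.2 and 105 CPM in the libraries labelled KO and 28.5, 17.9 and 37.6 CPM in WT libraries. The lowest KO library was clear of the highest WT library, and the log2 fold change was 1.53 (SE 0.30, edgeR adjusted p = 0.138).

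New CENP-A is placed on chromatin by the chaperone HJURP, guided by the Mis18 complex, of which Mis18a and Oip5 (MIS18 beta) encode subunits. Hjurp, the most abundant centromere gene by CPM, had 183, 163 and 215 CPM in the libraries labelled KO and 87.1, 71.5 and 120.3 CPM in WT libraries. The log2 fold change of Hjurp was 1.01 (SE 0.22), the lowest of the 4 genes for CENP-A and its loading. Oip5 had 5.33, 5.28 and 6.89 CPM in the libraries labelled KO and 2.02, 1.63 and 2.12 CPM in WT libraries. The KO libraries were close to each other, and the log2 fold change was 1.59 (SE 0.29, edgeR adjusted p = 0.138). Mis18a averaged 11.6 ± 1.63 CPM in KO and 4.68 ± 1.18 CPM in WT (SD, n = 3 each). DESeq2 called all 4 genes for CENP-A and its loading, against 4.13% of all tested genes called higher. Oip5 overlaps Nusap1, which encodes a spindle protein, in the RefSeq annotation, as 17 of the 44 genes overlap another gene. The libraries kept the strand, but whether the counting used it is not known from the labels, so reads of such neighbours may enter these counts.

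The constitutive network is made of CENP-C and several smaller complexes. Cenph and Cenpi encode subunits of the CENP-HIKM complex. Cenph had 16.5, 10.9 and 24.1 CPM in the libraries labelled KO and 5.43, 5.41 and 6.09 CPM in WT libraries. The WT libraries were nearly level while the KO libraries spread widely, and the log2 fold change was 1.60 (SE 0.31). Cenpi had 22.0, 21.5 and 31.9 CPM in the libraries labelled KO and 9.30, 5.36 and 10.1 CPM in WT libraries, a log2 fold change of 1.61 (SE 0.30, edgeR adjusted p = 0.138). The other subunits, Cenpk and Cenpm, had log2 fold changes of 1.28 and 0.98.

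Cenpq belongs to the CENP-OPQU complex and had the smallest p of the centromere genes. It had 20.0, 17 and 24.9 CPM in the libraries labelled KO and 9.82, 7.63 and 8.26 CPM in WT libraries. The groups were well apart, with a log2 fold change of 1.26 (SE 0.22, edgeR adjusted p = 0.138). Its partners had log2 fold changes of 1.34 for Cenpu, 0.97 for Cenpo and 0.61 for Cenpp. Cenpp had 5.13, 6.93 and 6.33 CPM in the libraries labelled KO and 4.69, 2.62 and 4.71 CPM in WT libraries. The gap between the lowest KO and the highest WT library was small beside the spread within WT, and Cenpp was not nominally higher (edgeR adjusted p = 0.358). Cenpl and Cenpn, whose products bind CENP-A nucleosomes together, had log2 fold changes of 1.11 and 1.21. The histone-fold pair Cenpt and Cenpw had 0.70 and 1.07 on the same scale.

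Cenpc1 encodes CENP-C, the scaffold that links CENP-A chromatin to the outer kinetochore, and had the smallest fold change at the centromere. It had 41.1, 42.0 and 46.1 CPM in the libraries labelled KO and 38.0, 25.9 and 34.4 CPM in WT libraries. KO replicate 1 stood only slightly above WT replicate 1, and the log2 fold change was 0.40 (SE 0.18, edgeR adjusted p = 0.303).

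**Figure D2:**
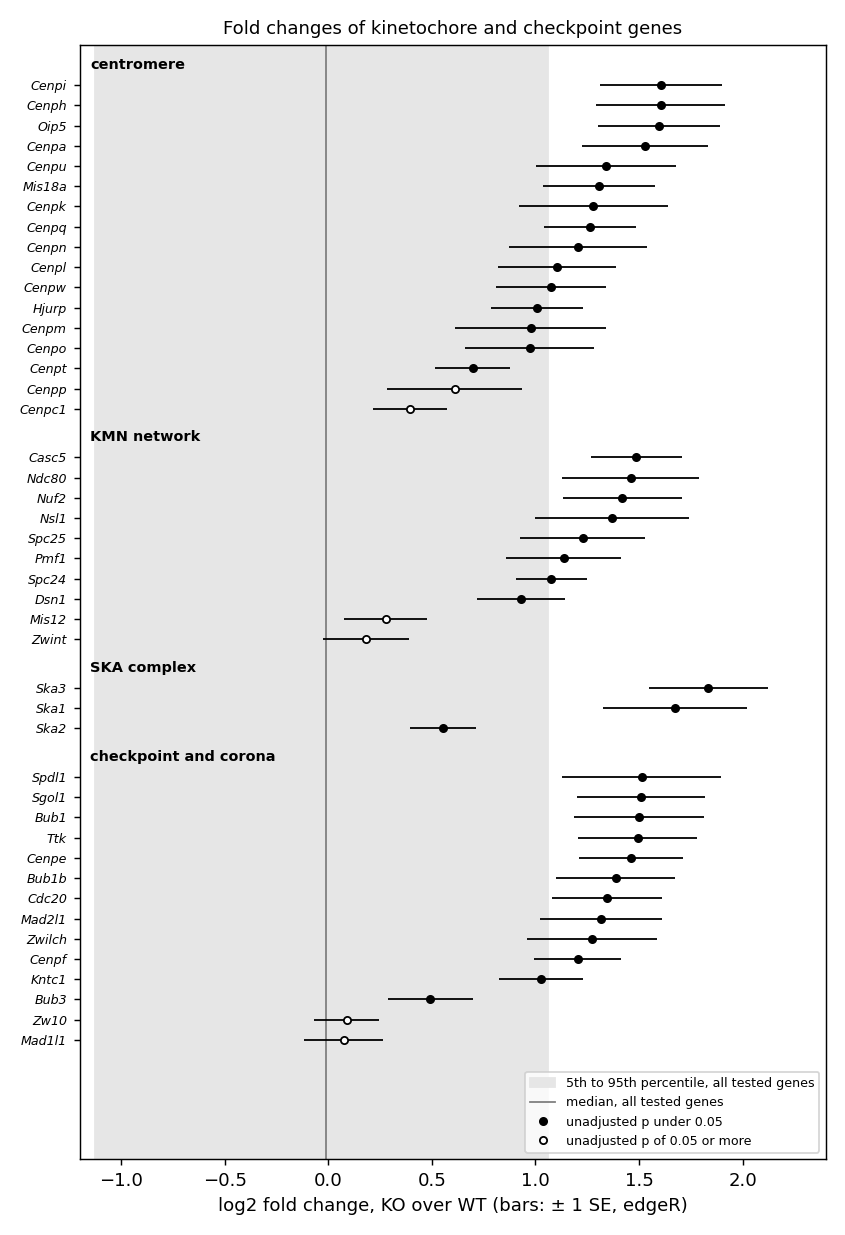
Log2 fold change of KO over WT for each of the 44 genes, with bars of 1 SE from edgeR, filled points for an unadjusted p under 0.05 and open points for the others. The grey band spans the 5th to the 95th percentile of all tested genes, -1.12 to 1.06, and the points run from 0.07 to 1.83.

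In the KMN network the median log2 fold change over 10 genes was 1.18. Every KO library was above every WT library in 8 genes, against 13.2% of all tested genes. In edgeR 8 were nominally higher, against 9.88%, and 0 passed after adjustment. DESeq2 called 8, against 4.13%. Casc5, also named Knl1, encodes the scaffold that recruits checkpoint proteins, and it ranked 7 by p among all tested genes. It had 42.2, 42.8 and 53.4 CPM in the libraries labelled KO and 18.9, 12.1 and 18.3 CPM in WT libraries. Each KO library had more than 2 times the highest WT value, and the log2 fold change was 1.49 (SE 0.22, edgeR adjusted p = 0.138). The DESeq2 adjusted p = 8.22e-06 for Casc5.

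The NDC80 complex is the main microtubule-binding part of the kinetochore, and its 4 subunits had log2 fold changes between 1.08 and 1.46. Ndc80 had 32.0, 26.3 and 38.9 CPM in the libraries labelled KO and 16.5, 6.81 and 11.9 CPM in WT libraries. Nuf2, its partner in the microtubule-binding end, had 57.8, 51.4 and 79.0 CPM in the libraries labelled KO and 28.8, 14.8 and 26.6 CPM in WT libraries. In both genes KO replicate 3 was the highest library and WT replicate 2 the lowest. Spc24, from the end of the complex that docks on the inner kinetochore, had 30.8, 27.1 and 31.7 CPM in the libraries labelled KO and 15.4, 12.3 and 14.7 CPM in WT libraries. Its libraries were close within each group, and the log2 fold change was 1.08 (SE 0.17, edgeR adjusted p = 0.138). Its partner Spc25 averaged 37.1 ± 11.5 CPM in KO and 15.8 ± 4.71 CPM in WT (SD, n = 3 each).

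The MIS12 complex joins the outer network to CENP-C, and its subunits differed among themselves. Dsn1 had 22.9, 25.1 and 24.5 CPM in the libraries labelled KO and 13.1, 9.61 and 15.2 CPM in WT libraries, a log2 fold change of 0.93 (SE 0.21). Nsl1 and Pmf1 had log2 fold changes of 1.37 and 1.14. Mis12 had 45.9, 35.5 and 59.1 CPM in the libraries labelled KO and 39.4, 38.7 and 37.6 CPM in WT libraries. The library labelled KO replicate 2 was below all WT libraries, so the groups overlapped, and the log2 fold change of Mis12 was 0.28 (SE 0.20, edgeR adjusted p = 0.490). Without that library it was 0.45 (edgeR adjusted p = 0.312). Zwint, which binds KNL1 and helps to bring the RZZ complex to kinetochores, was the most abundant KMN gene by CPM. It had 120.2, 81.1 and 138 CPM in the libraries labelled KO and 92.0, 102 and 105 CPM in WT libraries. Again the library labelled KO replicate 2 was the lowest of all 6. The log2 fold change of Zwint was 0.18 (SE 0.21, edgeR adjusted p = 0.671), and 0.38 without that library (edgeR adjusted p = 0.323).

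The SKA complex steadies the hold of kinetochores on microtubules, and its genes included the largest fold change of the 44 beside a modest one. Ska3 had 17.2, 13.9 and 23.4 CPM in the libraries labelled KO and 5.73, 3.78 and 5.72 CPM in WT libraries. The groups were far apart, with a log2 fold change of 1.83 (SE 0.29, edgeR adjusted p = 0.138). Ska1 had 8.41, 6.67 and 11.7 CPM in the libraries labelled KO and 3.66, 2.04 and 2.65 CPM in WT libraries, a log2 fold change of 1.67 (SE 0.35). Ska2 had 40.7, 35.6 and 47.1 CPM in the libraries labelled KO and 27.3, 28.6 and 28.2 CPM in WT libraries. The WT libraries were nearly level and below all KO libraries, and the log2 fold change of Ska2 was 0.55 (SE 0.16, edgeR adjusted p = 0.188). DESeq2 called Ska3 and Ska1, against 4.13% of all tested genes called higher, and gave Ska2 an adjusted p = 0.0655.

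Checkpoint and corona genes had log2 fold changes with a median of 1.33 over 14 genes. Every KO library was above every WT library in 12 genes, against 13.2% of all tested genes. In edgeR 12 were nominally higher, against 9.88%, and 0 passed after adjustment. DESeq2 called 11, against 4.13%. Ttk encodes MPS1, the kinase that starts checkpoint signalling at unattached kinetochores. It had 20.8, 16.9 and 26.5 CPM in the libraries labelled KO and 9.34, 5.18 and 8.20 CPM in WT libraries. The log2 fold change was 1.49 (SE 0.29, edgeR adjusted p = 0.138), with no overlap. The kinase gene Bub1 averaged 68.3 ± 13.5 CPM in KO and 24.1 ± 9.18 CPM in WT (SD, n = 3 each), and Bub1b, which encodes the CDC20 inhibitor BUBR1, 102 ± 20.8 CPM in KO and 39.1 ± 13.5 CPM in WT (SD, n = 3 each).

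Cdc20 encodes the target of the checkpoint. Its transcript had 94.1, 74.8 and 141 CPM in the libraries labelled KO and 45.4, 32.0 and 44.6 CPM in WT libraries. The KO libraries spread more than the WT libraries and stayed above them, and the log2 fold change was 1.34 (SE 0.26, edgeR adjusted p = 0.138). Mad2l1, which encodes the MAD2 protein that is loaded onto CDC20, averaged 49.9 ± 18.2 CPM in KO and 20.0 ± 4.13 CPM in WT (SD, n = 3 each), a log2 fold change of 1.32. Sgol1, the shugoshin that protects centromeric cohesin, had a log2 fold change of 1.51.

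Mad1l1 and Bub3 had small differences. Mad1l1 encodes MAD1, the kinetochore-bound partner of MAD2, and had 56.9, 39.9 and 57.9 CPM in the libraries labelled KO and 47.8, 55.5 and 43.6 CPM in WT libraries. The groups were interleaved, with the lowest value in the library labelled KO replicate 2, and the log2 fold change was 0.07 (SE 0.19, edgeR adjusted p = 0.863). Its sign turned in 3 DESeq2 fits with a library left out. Bub3, which brings BUB1 and BUBR1 to the kinetochore, averaged 105 ± 27.3 CPM in KO and 74.6 ± 7.17 CPM in WT (SD, n = 3 each). Its log2 fold change was 0.49 (SE 0.20, edgeR adjusted p = 0.271). Unlike Mad1l1, Bub3 was nominally higher (edgeR unadjusted p = 0.0443). Its lowest KO library, at 86.1 CPM, lay above its highest WT library, at 81.5 CPM.

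The corona is a fibrous outer layer that catches microtubules and holds the RZZ complex, made of ROD, ZW10 and Zwilch. Cenpe, a kinesin that carries chromosomes along the spindle, had 113, 110.4 and 131 CPM in the libraries labelled KO and 50.03, 27.4 and 51.2 CPM in WT libraries. Cenpf, the most abundant gene of its group by CPM, had 124, 129.5 and 131 CPM in the libraries labelled KO and 64.8, 38.8 and 63.0 CPM in WT libraries. In both genes the KO libraries were close together and WT replicate 2 was low. The log2 fold change was 1.46 (SE 0.25, edgeR adjusted p = 0.138) for Cenpe and 1.203 (SE 0.21, edgeR adjusted p = 0.138) for Cenpf. Spdl1, which encodes an adaptor for dynein, had a log2 fold change of 1.51.

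Within the RZZ complex the genes parted. Kntc1, which encodes ROD, had 69.5, 63.5 and 71.9 CPM in the libraries labelled KO and 42.2, 25.5 and 32.8 CPM in WT libraries, a log2 fold change of 1.03 (SE 0.20, edgeR adjusted p = 0.138). Zwilch had a log2 fold change of 1.27. Zw10, whose product also acts in membrane traffic outside mitosis, had 39.4, 33.2 and 41.4 CPM in the libraries labelled KO and 33.3, 39.5 and 34.4 CPM in WT libraries. Its groups overlapped, with a log2 fold change of 0.09 (SE 0.16, edgeR adjusted p = 0.788).

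The 6 genes with a log2 fold change under 0.5 came from all groups except SKA, namely Cenpc1, Mis12, Zwint, Bub3, Mad1l1 and Zw10. Their mean CPM ran from 36.9 to 106 with a median of 46.5, and that of all 44 from 3.13 to 140.0 with a median of 22.0. Across the 44 genes, which share their libraries, mean CPM and log2 fold change had a Pearson r of -0.30 on log2 CPM and a Spearman rho of -0.25, given as a description. Per kilobase of the longest annotated transcript, the highest KO mean levels were 59.8 CPM per kb for Cenpa, 57.6 for Cdc20, 51.1 for Bub3 and 42.3 for Zwint. In WT the same genes led in another order, at 37.3 CPM per kb for Zwint, 36.3 for Bub3, 22.7 for Cdc20 and 20.7 for Cenpa. Cenpu had the lowest level per length in both groups, at 2.01 CPM per kb in KO and 0.792 in WT.

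Because small fold changes sat beside large ones in the same complex or step, ratios of partner genes were taken within each library for 6 pairs chosen after their values were seen. The ratio of Casc5 to Zwint was 0.351, 0.527 and 0.387 in the libraries labelled KO and 0.206, 0.119 and 0.174 in WT libraries. The mean ratio of Dsn1 to Mis12 was 0.539 ± 0.151 in KO and 0.328 ± 0.0779 in WT, and that of Ska3 to Ska2 0.437 ± 0.0548 in KO and 0.182 ± 0.0430 in WT (SD, n = 3 each). Kntc1 over Zw10 gave 1.80 ± 0.0932 in KO and 0.956 ± 0.310 in WT, Bub1 over Bub3 gave 0.657 ± 0.0382 in KO and 0.318 ± 0.102 in WT, and Mad2l1 over Mad1l1 gave 0.953 ± 0.215 in KO and 0.419 ± 0.131 in WT. In all 6 pairs every KO ratio lay above every WT ratio. An exact two-sided permutation test gave p = 0.1 for each, the smallest value that 3 against 3 allows, and 0.1 after Benjamini-Hochberg adjustment over the 6 pairs. Each pair was picked with a larger fold change beside a smaller one, though Dsn1 and Kntc1 were not the largest of their complexes. Higher ratios in KO thus follow from the choice, and the test supports nothing further. A ratio within a library does not depend on how libraries are scaled.

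**Figure D3:**
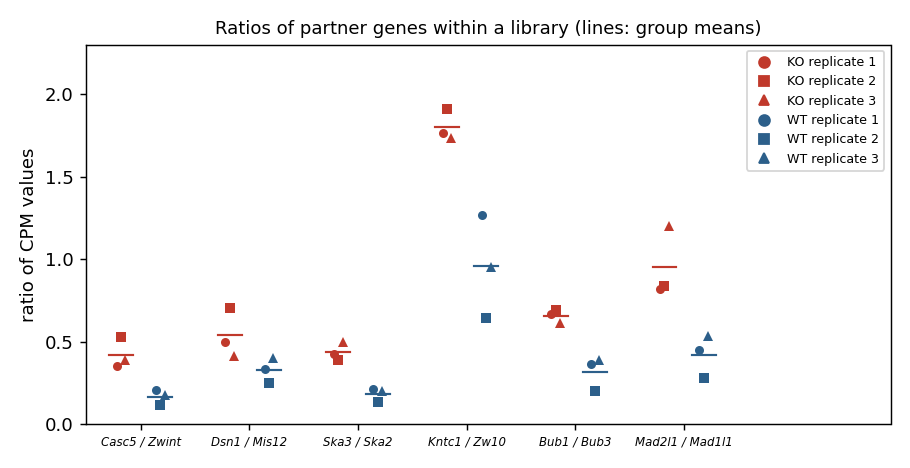
Ratio of the CPM values of partner genes in each library for 6 pairs, with KO libraries in red left of WT libraries in blue and lines at the group means. KO points stand above WT points in every pair, as the choice of pairs favoured, and Kntc1 over Zw10 has the highest means, 1.80 in KO and 0.956 in WT.

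Further genes of the pathway were taken from lists that share no gene with the 44. Over all tested genes 9.88% were nominally higher and 7.83% lower in edgeR, and DESeq2 called 4.13% higher and 2.21% lower. For other kinetochore and checkpoint genes 24 symbols were listed and 23 genes found. Of these 14 were nominally higher and 2 lower in edgeR, DESeq2 called 13 higher and 1 lower, and the median log2 fold change was 1.32. Sgol2a, another shugoshin, averaged 23.8 ± 2.99 CPM in KO and 9.49 ± 1.35 CPM in WT (SD, n = 3 each). Aurkb, Cdca8 and Kif2c, which serve the correction of faulty attachments, had log2 fold changes of 1.78, 1.49 and 1.51. Itgb3bp (CENP-R) and Stra13 (CENP-X) had -0.04 and 0.12. The nominally lower genes were Clip1 and Clasp1, microtubule plus-end proteins that interphase cells also use, with log2 fold changes of -0.81 and -0.61; they were named after their values were seen.

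The anaphase-promoting complex, on which the checkpoint acts, had 18 genes for subunits and regulators. Of these 12 had positive and 6 negative fold changes, and the median log2 value was 0.18. In edgeR 4 were nominally higher and 0 lower, and DESeq2 called 3 higher. In 8 genes every KO library lay above every WT library, against 13.2% of all tested genes, and in 0 every KO library lay below. The nominally higher genes were the ubiquitin-conjugating enzymes Ube2c and Ube2s, with log2 fold changes of 1.09 and 0.75, the inhibitor Fbxo5 (EMI1) with 1.69, and the subunit Anapc5 with 0.48. The subunits Anapc4 and Anapc10 had -0.02 and -0.03. For cohesin and its release 16 symbols were listed and 15 genes found. Their median was 0.19, with 4 nominally higher and 0 lower in edgeR and 3 called higher by DESeq2. Espl1, which encodes separase, averaged 56.9 ± 9.06 CPM in KO and 22.3 ± 6.42 CPM in WT (SD, n = 3 each). Esco2, Cdca5 and Stag1 had log2 fold changes of 1.68, 1.53 and 0.44, while Pttg1 (securin) and Stag2 had 0.03 and 0.04.

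Proliferation genes were higher in KO, as the 44 genes were, while sarcomere genes, taken as markers of muscle differentiation, were lower. All 12 proliferation genes were nominally higher in edgeR, against 9.88% of all tested genes, and 0 passed after adjustment, against 0%. DESeq2 called all 12 higher, against 4.13%. Their median log2 fold change was 1.42, and the mitotic genes Ccnb1, Ccnb2, Cdk1 and Top2a had 1.62, 1.37, 1.45 and 1.41. A list score was taken as the mean of log2 CPM over a list, centred on the 6 libraries. For the 44 genes it was 0.51 and 0.87 in KO replicates 1 and 3, 0.31 in the library labelled KO replicate 2, and -0.40, -0.92 and -0.38 in WT libraries. The proliferation score was 0.72 and 1.12 in KO replicates 1 and 3, 0.22 in the library labelled KO replicate 2, and -0.39, -1.09 and -0.59 in WT libraries. Both ranked KO replicate 3 first and WT replicate 2 last, with no overlap of the groups, and the scores of the other kinetochore, anaphase-promoting complex and cohesin lists did not overlap either.

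All 16 sarcomere genes had negative log2 fold changes, with a median of -1.48, while 49.2% of all tested genes were above 0. In edgeR 12 were nominally lower, against 7.83% of all tested genes, and 0 passed after adjustment, against 0%. DESeq2 called 9 lower, against 2.21%. The sarcomere score was 0.23 and -1.53 in KO replicates 1 and 3, -1.10 in the library labelled KO replicate 2, and -0.01, 1.45 and 0.95 in WT libraries. KO replicate 3 scored lowest here and WT replicate 2 highest. In the score of the 44 genes KO replicate 3 was highest, at 0.87, and WT replicate 2 lowest, at -0.92. In the sarcomere score KO replicate 1 stood above WT replicate 1, so the groups overlapped. The kinetochore scores of those libraries were 0.51 and -0.40. The part of proliferation or differentiation in the kinetochore values was not tested.

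**Figure D4:**
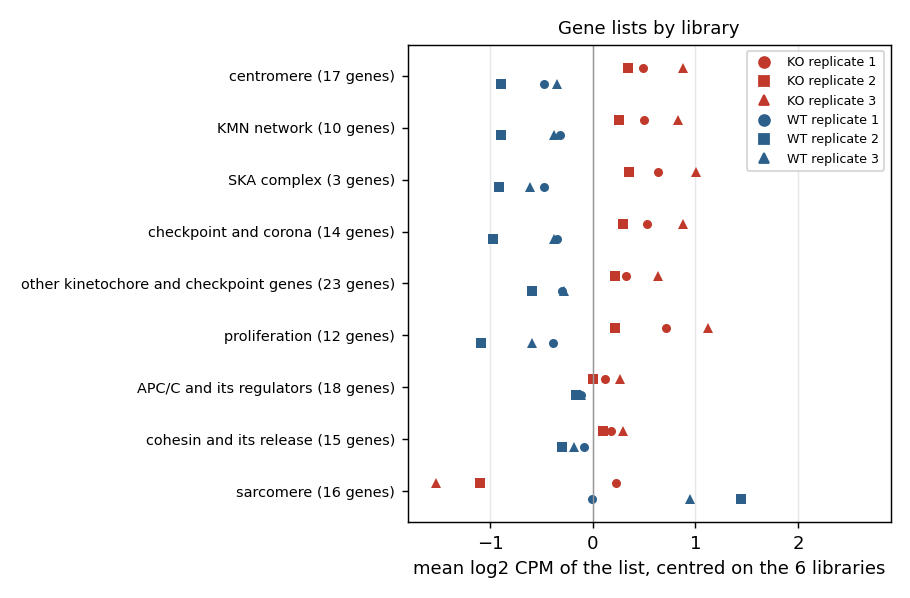
Score of each gene list in each library, as mean log2 CPM centred on the 6 libraries, with KO libraries in red above WT libraries in blue and 1 symbol per replicate. KO and WT scores are apart in every list shown except the sarcomere genes, where they overlap, KO replicate 1 scoring 0.23 and WT replicate 1 scoring -0.01.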

How the data were processed

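Libraries were stranded and made from poly(A) RNA, and each was grouped by the genotype and replicate number in its title; the design text calls them biological replicates. Per the submitters' processing notes, reads were handled with FastQC and Trimmomatic, with TopHat2 2.0.8 and Bowtie2, and with featureCounts, on GRCm38, and DESeq2 is named too; no settings are given. The deposited raw counts per gene were used for every fit. The authors' normalized columns are a signal, the count divided by a size factor, and went unused, as did the authors' test score. The authors' log2 fold changes and p-values, with 7268 adjusted p left as NA, served as an alternative.

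The filter filterByExpr kept 14835 of 21778 genes. TMM scaling and the quasi-likelihood F test of edgeR 4.0.16 (R 4.3.3) had genotype as the only term, with Benjamini-Hochberg adjustment over all tested genes and a threshold of 0.05. The SE of a log2 fold change is its size divided by the root of F. Scores used log2 CPM with a prior count of 2. Alternatives were DESeq2 1.42.0, limma-voom (limma 3.58.1), other scalings and filters, a replicate block, a sex covariate and each library left out. The fits were also run on simulated counts with known changes in genes outside the set, which does not test the calls made here. Promoters and overlaps came from RefSeq tables, and lengths from GENCODE vM1 transcripts.

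The 44 genes, their grouping and the other lists were chosen with earlier results of these data known. Per group, values in every library are printed for up to 5 genes with the smallest edgeR p, up to 2 with the largest and the 1 with the highest mean CPM, and of other pathway lists up to 4 genes with the smallest and 2 with the largest p are named. No share of counts in a single library is reported, so no binomial interval is given.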

Additional observations from a re-analysis of the deposited data

How the results depend on the processing

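The 44 log2 fold changes stayed positive under every alternative in which a gene was tested, except for Mad1l1 in DESeq2, which gave -0.016 on leaving out KO replicate 1, -0.023 for KO replicate 3 and -0.019 for WT replicate 3; with a library left out its values ended at 0.23. Over all alternatives 35 to 39 of them were nominally higher, and their median log2 fold change was 1.01 to 1.40. A minimum mean of 5 CPM left 41 of the 44 to test.

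Numbers called after adjustment depended on the tool. Of the 44, edgeR and limma-voom called 0, while DESeq2 called 34, DESeq2 with sex as a covariate 34 and 34 were called in the authors' deposited table; leaving out a library gave 0 to 33 over edgeR and DESeq2, with 16 in DESeq2 without KO replicate 3, where 175 of all genes were called higher. Over all genes DESeq2 called 613 higher and 328 lower, DESeq2 with sex 848 and 727, and 609 and 309 were called in the authors' deposited table. With a library left out these ran over 0 to 799 higher and 0 to 747 lower, and nominal numbers over 884 to 1673 higher and 434 to 1685 lower. Scaling by library totals left 700 nominally lower and gave a median log2 value of 0.14 over all genes, 0.33 over the anaphase-promoting complex and 0.33 over cohesin. The median of the other kinetochore and checkpoint genes was 1.08 to 1.42 with a library left out. Hdac11 had log2 fold changes of -1.19 to -0.37, and DESeq2 called it once the library labelled KO replicate 2 was left out. The cause of these differences was not tested.

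Deviations of same-numbered libraries from their group means correlated at -0.25, -0.07 and 0.05. Without a reference value for paired libraries, these correlations cannot decide whether same-numbered samples were paired. With the replicate block 38 of the 44 genes were nominally higher and 0 passed after adjustment.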
